A study of Mus musculus with 12 samples.

Results

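The 9 genes described here encode the MHC class II antigen presentation machinery and the surface molecules that costimulate T cells. They are H2-Aa, H2-Ab1, H2-Eb1, H2-DMa, Cd74, Ciita, Cd80, Cd86 and Cd40. They were chosen by name for their known function, with earlier results of these data known. Every probe set that the platform annotation gives to 1 of these symbols alone was taken. That rule found 23 of 45037 probe sets on the array, covering 9 of 18193 genes with such a probe set. RNA was measured on 12 Affymetrix mouse expression arrays. In the co-culture group (treated), 3000 mesenchymal stem cells (MSCs, Sca-1+ and Pdgfr-α+) were grown per well with 7000 haematopoietic stem cells (HSCs, Lin- Sca-1+ c-Kit+) for 6 days, on 6 arrays. In the MSC-only group (control), 3000 MSCs per well were grown for the same 6 days with 0 HSCs, again on 6 arrays. All cells came from the bone marrow of C57BL6/J mice labelled male and aged 6 weeks, and the MSCs of the co-culture group carried an EGFP transgene, which those of the MSC-only group are not stated to carry. Nothing in the sources says which mice or cell preparations the arrays share, so the p-values measure only the spread between these samples. The arrays asked whether co-culture with HSCs changes transcripts of the MSCs.

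MHC class II molecules are pairs of an alpha and a beta chain that carry peptides from endocytosed protein to the cell surface, where CD4+ T cells read them. Dendritic cells, B cells and activated macrophages are the classical users of this pathway, whereas mesenchymal cells usually show class II only after exposure to interferon gamma. CD80 and CD86 on the presenting cell bind CD28 on the T cell and supply the costimulatory signal, and CTLA-4 competes for both. CD40 receives CD40 ligand from helper T cells and licenses the presenting cell. C57BL/6 mice carry the b haplotype of the H2 complex, in which the alpha chain partner of the H2-Eb1 product is not made, so the I-A pair of H2-Aa and H2-Ab1 is the class II molecule at their cell surface.

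Several features of the arrays bear on all values that follow. Although every sample is labelled male, Xist, the RNA of the inactive X chromosome, had a signal of 13136 to 21978 on 8 arrays, namely the 6 co-cultures and MSC-only arrays 3 and 4, against 60.5 to 118 on the other 4. The Y-linked Eif2s3y had 1022 to 1331 on co-cultures 1, 2, 5 and 6, against 2604 to 2845 on MSC-only arrays 1, 2, 5 and 6, and at most 13.6 on the 4 arrays numbered 3 and 4. The differences between the groups were also computed without the arrays numbered 3 and 4. Among the arrays left, every co-culture had high Xist and the lower Eif2s3y, and every MSC-only array the reverse. In that subset, co-culture and this sex-linked difference cannot be told apart. The first principal component of all probe sets other than the 23 held 21.6% of the variance and divided the arrays evenly. Co-cultures 2, 3 and 5 and MSC-only arrays 1, 3 and 5 had negative scores, the highest being -31.8. Co-cultures 1, 4 and 6 and MSC-only arrays 2, 4 and 6 had positive scores, the lowest being 28.6. The labels name nothing that follows this division, so it is used only to describe the arrays, with no test between its sides.

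The markers of the labelled and of other cell types were read in the same way. The 10 macrophage markers summed to between 140678 and 180862 in the co-culture group, against 133046 to 183449 in the MSC-only group. Among them Ptprc, which encodes CD45, had 11519 to 12642 in co-cultures and 10425 to 13144 in MSC-only arrays, and Cd68 had 24726 to 30482 in co-cultures and 24712 to 31903 in MSC-only arrays. The sort is described as taking MSCs without CD45, and no further sort before RNA extraction is stated. Of the stromal markers, Pdgfra had 407 to 1464 in co-cultures and 583 to 1162 in MSC-only arrays, and Col1a2 had 9677 to 17747 in co-cultures and 10465 to 20612 in MSC-only arrays. Other stromal markers were dimmer. Nt5e had 4.8 to 36.1 in co-cultures and 4.5 to 57.8 in MSC-only arrays. Thy1 had 7 to 84.4 in co-cultures and 35.1 to 123.7 in MSC-only arrays. Some markers of both kinds, though not every stromal marker, were therefore read well above the floor of the scale on every array in both groups. In bulk RNA of this kind, fewer cells of a type and less RNA per cell cannot be told apart.

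The class II chains come first. H2-Eb1, the beta chain of I-E, and H2-Aa, the alpha chain of I-A, lie on chromosome 17, and the RefSeq promoter table of build GRCm38.p6 holds both. Their promoters are shown because class II promoters carry the X and Y boxes, at which RFX, CREB and NF-Y assemble and recruit CIITA, the transactivator encoded by Ciita. The 130 bases before each start site are printed on the gene's strand, with the letters GCAACT (from the X box) and GATTGG (from the Y box) in capitals. The letters were chosen after these promoters had been seen. H2-Eb1 is at chr17:34305737-34305866 on the plus strand and H2-Aa at chr17:34287824-34287953 on the minus strand.
H2-Eb1: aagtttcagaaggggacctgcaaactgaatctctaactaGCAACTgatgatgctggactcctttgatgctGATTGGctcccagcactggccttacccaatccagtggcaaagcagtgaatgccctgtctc
H2-Aa: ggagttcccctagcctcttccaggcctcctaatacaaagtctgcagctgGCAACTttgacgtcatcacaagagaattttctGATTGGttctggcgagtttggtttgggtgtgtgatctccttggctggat

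In H2-Eb1 the X letters began at -91 and the Y letters at -60 from the start site. In H2-Aa they began at -81 and -49. H2-Eb1 held another match to GATTGG on the opposite strand at -35, left in lower case. On either strand, GCAACT was found in the 250 bases before the start of 9.01% of 32851 promoters and GATTGG in 14.6%, while the X letters followed by the Y letters within 60 bases on the gene's own strand were found in 0.0731%. The table holds 5 promoters of 4 of the 9 genes. Of the other 3 promoters, that of Cd80 had the X letters alone, on the opposite strand at -64, and 1 of the 2 promoters of H2-DMa had the Y letters alone at -199. A match of letters is a description of the sequence and not a site of binding.

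H2-Eb1 had a signal of 68.5 at lowest, 152 at the median and 313 at highest in the co-culture group, against 46.0, 119 and 230 in the MSC-only group. The groups overlapped, while the 2 sides of the first component did not. The 6 negative-score arrays held 159 to 313, against 46.0 to 104 on the positive-score arrays, and the lowest of the first set was 1.54 times the highest of the second. Its promoter is the first of the pair printed above.

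H2-Ab1, the beta chain of I-A, was read by 3 probe sets that did not behave alike. Probe set 1425477_x_at had 6.2, 45.9 and 126 (lowest, median and highest) in the co-culture group, against 2.6, 57.9 and 120 in the MSC-only group. In each group 3 arrays were near the top of that range and 3 near the bottom. Co-cultures 2, 3 and 5 had 126, 90.1 and 81.7, and MSC-only arrays 1, 3 and 5 had 120, 114 and 106. Co-cultures 1, 4 and 6 had 9.2, 6.2 and 10.0, and MSC-only arrays 2, 4 and 6 had 2.6, 9.6 and 6.3. The lowest negative-score array was thus 8.17 times the highest positive-score array, and the 12 arrays spanned 48.6-fold, although the low values lie where array signals are least reliable. The brightest probe set of the gene, 1450648_s_at, had 67.9, 143 and 208 in the co-culture group, against 72.0, 147 and 283 in the MSC-only group. On it the sides overlapped, with 131 to 283 on negative-score arrays and 67.9 to 147 on positive-score arrays. The last probe set, 1451721_a_at, had 36.5 to 126 in co-cultures and 48.1 to 117 in MSC-only arrays, and its sides overlapped too. Probe sets of this design whose names end in _x_at or _s_at can read related transcripts, which limits what a single one says of its gene.

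H2-Aa, whose product pairs with that of H2-Ab1, did not follow it in signal. Even its brightest probe set lay at percentile 47.6 of all probe sets by level, below the median, and no detection call was used. Its brightest probe set, 1435290_x_at, had 26.9, 55.8 and 176 in the co-culture group, against 12.6, 66.1 and 333 in the MSC-only group. MSC-only array 4 had the highest value, followed by co-cultures 6 and 1 with 176 and 140. All of these have positive scores, on which H2-Eb1 was low. The spread of this probe set over the 12 arrays was larger than that of 99.5% of probe sets of a similar level, and the sides overlapped. The other 3 probe sets of the gene spanned 21.8 to 105, 19.8 to 55.6 and 2.6 to 10.9 in co-cultures, against 22.9 to 79.4, 10.6 to 91.3 and 1.0 to 21.7 in MSC-only arrays.

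Cd74 encodes the invariant chain, which fills the class II groove and guides the molecule to endosomes. It had 123, 153 and 206 in the co-culture group, against 127, 149 and 194 in the MSC-only group. Its highest array was 1.67 times its lowest, the narrowest span of the 23 probe sets. H2-DMa encodes a chain of the H2-DM complex, which exchanges the invariant chain fragment for peptide. Its probe set 1422527_at had 219, 247 and 330 in the co-culture group, against 186, 226 and 372 in the MSC-only group; its highest array was 2.0 times its lowest. The dimmer 1459872_x_at had 4.1 to 50.9 in co-cultures and 15.9 to 69.3 in MSC-only arrays. Neither gene divided along the first component.

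Ciita, the master regulator of class II transcription, was read by 3 probe sets. The brightest, 1421210_at, had 7.4, 52.0 and 87.2 in the co-culture group, against 27.1, 62.5 and 76.9 in the MSC-only group. Co-culture 2 held the 7.4, well below the 48.3 of the next co-culture. Probe set 1421211_a_at had 11.8, 19.7 and 25.2 in the co-culture group, against 3.6, 6.8 and 13.9 in the MSC-only group. The groups overlapped only through co-cultures 5 and 4, at 11.8 and 12.2, and MSC-only array 6, at 13.9. Probe set 1447075_at had 0.8 to 31.1 in co-cultures and 4.2 to 31.7 in MSC-only arrays. The 3 probe sets did not rise and fall together over the 12 arrays, with Pearson correlations of -0.36, -0.18 and -0.02 between them, given without a test.

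Of the costimulatory ligands, Cd86 varied widely from array to array. Probe set 1420404_at had 375, 883 and 1480 in the co-culture group, against 449, 988 and 1562 in the MSC-only group. Probe set 1449858_at had 317, 952 and 1517 in the co-culture group, against 326, 929 and 1530 in the MSC-only group. Neither group held a value between 828 and 1148 on 1420404_at or between 626 and 1232 on 1449858_at, so that each group fell into 3 high and 3 low arrays. Negative-score arrays had 1148 to 1562 on 1420404_at, against 375 to 828 on positive-score arrays, and 1232 to 1530 on 1449858_at, against 317 to 626. The lowest negative-score array was 1.39 times the highest positive-score array on 1420404_at and 1.97 times on 1449858_at. The 2 probe sets tracked each other over the 12 arrays (r = 0.98). Within the positive-score arrays r was 0.96 and within the negative-score arrays -0.01, as descriptions over 6 arrays each.

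Cd80, the other ligand of CD28, showed a smaller division. Probe set 1432826_a_at had 135, 235 and 293 in the co-culture group, against 174, 236 and 325 in the MSC-only group. Negative-score arrays had 257 to 325, against 135 to 214 on positive-score arrays, a ratio of 1.20 between the nearest arrays. Probe set 1451950_a_at had 89.7, 192 and 229 in the co-culture group, against 109, 207 and 302 in the MSC-only group, and the sides overlapped. The remaining 2 probe sets were dim, with 16.2 to 77.7 and 2.5 to 34.1 in co-cultures against 4.7 to 55.4 and 7.3 to 61.0 in MSC-only arrays.

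Cd40 had no such division. Its brightest probe set, 1460415_a_at, had 39.9, 71.4 and 90.9 in the co-culture group, against 21.5, 79.8 and 104 in the MSC-only group. Probe set 1449473_s_at had 16.2 to 95.8 in co-cultures and 27.3 to 80 in MSC-only arrays, and 1439221_s_at had 3.5 to 64.7 in co-cultures and 2.4 to 51.4 in MSC-only arrays. The brightest probe set correlated negatively with each of the other two (r = -0.40 and -0.61), so the probe sets of this gene did not give 1 pattern.

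**Figure D1:**
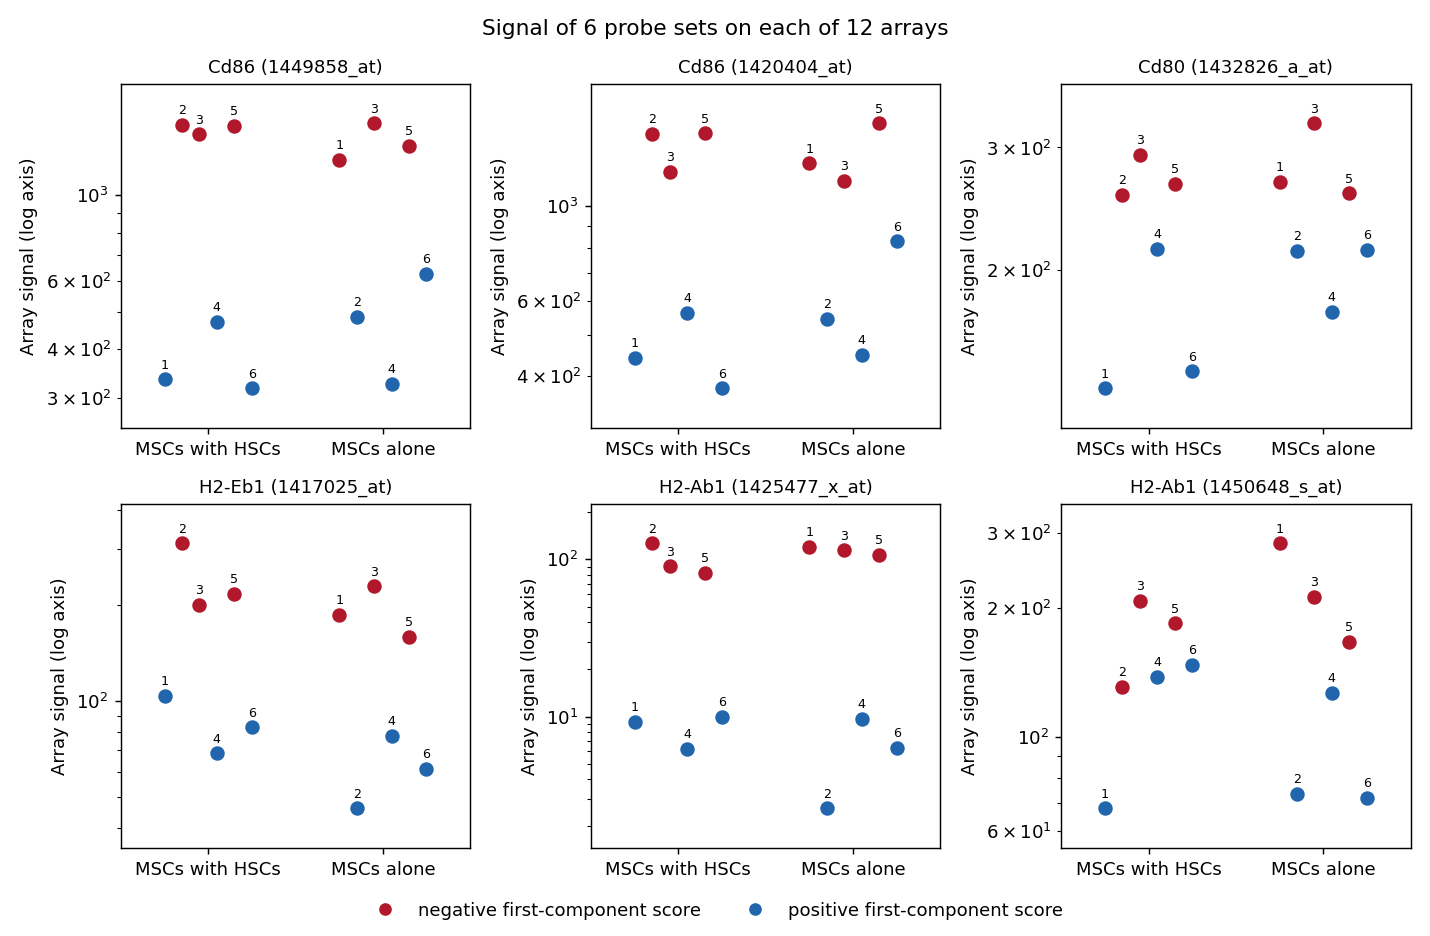
Array signal (log axis, arbitrary units) of 6 probe sets of Cd86, Cd80, H2-Eb1 and H2-Ab1, with 1 numbered point per array, co-cultures left and MSC-only arrays right, and colours for the sign of the first component score. In the first 5 panels the negative-score points of both groups lie above all positive-score points, while in the last panel (H2-Ab1, 1450648_s_at) they overlap.

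In all, 5 of the 23 probe sets (21.7%), from 4 of the 9 genes, did not overlap between the sides, and all 5 were higher on the negative-score arrays. Over all 45037 probe sets, 6.6% did not overlap and 3.59% were higher on the negative-score arrays without overlap. The genes were chosen with earlier results of these data known, and both Cd86 probe sets are among the 5, so these shares are no test. The brightest probe sets of the 9 genes, 1 per gene, summed to between 1399 and 2856 in the co-culture group, against 1450 to 2666 in the MSC-only group. By side, the sums were 2392 to 2856 on negative-score arrays and 1399 to 1712 on positive-score arrays, a sum led by Cd86 1420404_at. Of the 23 probe sets, 8 had a spread over the 12 arrays above the 90th percentile for their level. By level, 8 of the 23 lay above the median of all probe sets. The brightest probe sets of H2-Aa (percentile 47.6), Cd40 (47.3) and Ciita (42.7) lay below it, so their signals may be close to undetected.

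**Figure D2:**
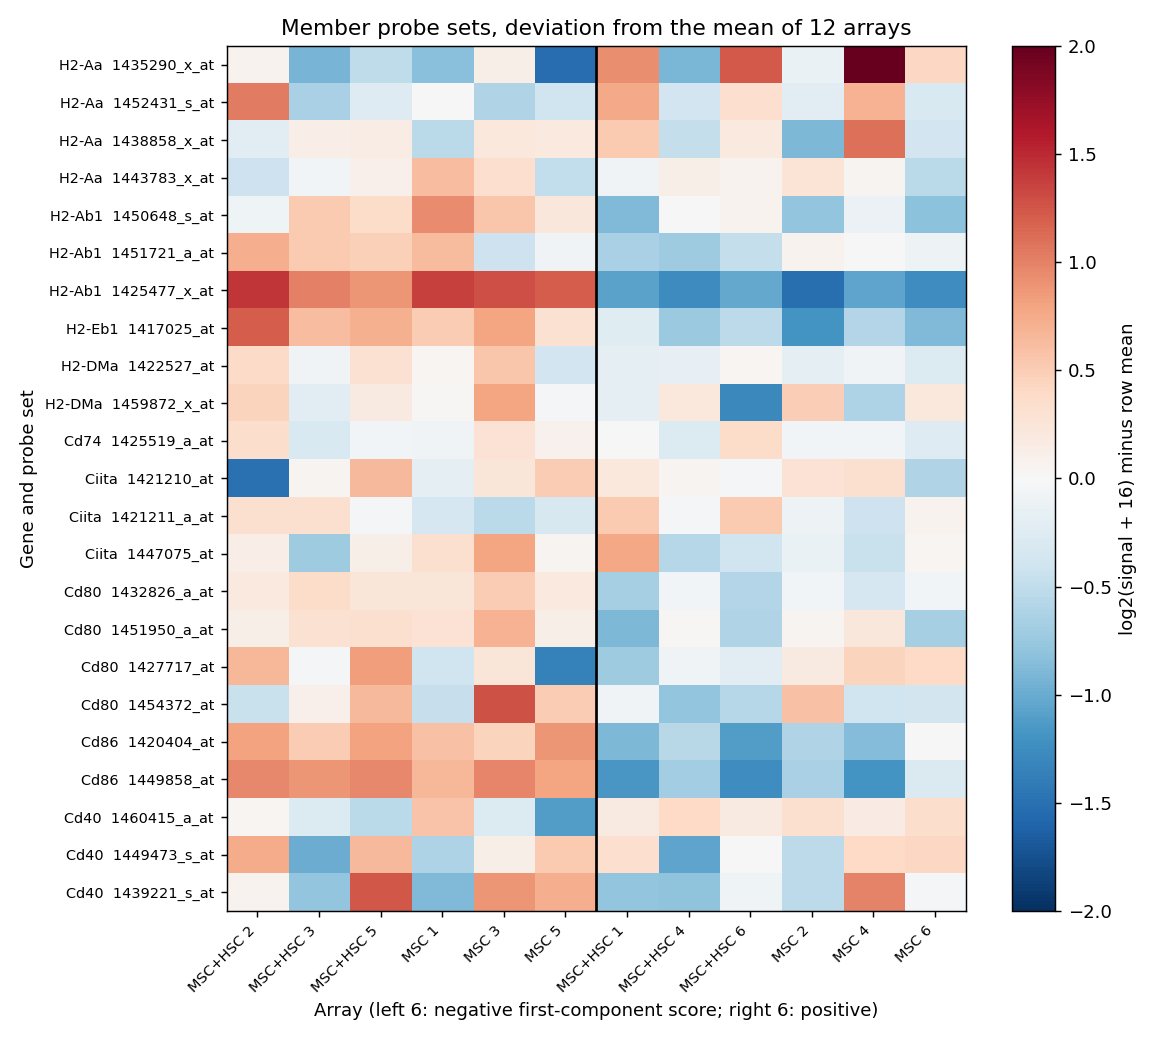
Deviation of log2(signal + 16) from the mean of the 12 arrays for the 23 probe sets (rows) on each array (columns), with negative-score arrays left of the line and positive-score arrays right of it. The rows of both Cd86 probe sets, H2-Eb1, Cd80 1432826_a_at and H2-Ab1 1425477_x_at are red on every array left of the line and blue or near white on the right, while H2-Aa, Cd74, H2-DMa, Ciita and Cd40 show no such division.

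Of the 10 macrophage markers 2 did not overlap between the sides, and of the 9 dendritic cell markers 2, against 6.6% of all probe sets. Itgax, which encodes CD11c of dendritic cells and some macrophages, had 68.0 to 251 on negative-score arrays against 348 to 1341 on positive-score arrays. Itgam, which encodes CD11b, had 269 to 496 on negative-score and 760 to 1746 on positive-score arrays, and Adgre1, the macrophage antigen F4/80, had 8833 to 12218 on negative-score and 13941 to 16686 on positive-score arrays. Clec10a, a lectin of dendritic cells and macrophages, went the other way, with 545 to 745 on negative-score arrays and 161 to 221 on positive-score arrays. Csf1r, the receptor of a macrophage growth factor, leaned the same way as Clec10a with overlap, at 30954 to 39489 on negative-score and 22598 to 31022 on positive-score arrays, and so did Mrc1, the mannose receptor, at 21253 to 24552 on negative-score and 15451 to 21562 on positive-score arrays. The summed macrophage markers overlapped, with 151160 to 183449 on negative-score arrays and 133046 to 160066 on positive-score arrays. The 10 stromal markers summed to 21825 to 33997 on negative-score arrays and 14369 to 21689 on positive-score arrays, although each of them alone overlapped. That sum was led by Col1a2, with 14397 to 20612 on negative-score and 9677 to 16116 on positive-score arrays. The part of these markers in the values of Cd86, Cd80, H2-Eb1 and H2-Ab1 was not tested.

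Several defining markers of other presenting cells were near the floor of the scale in both groups, while others were not. Of the 9 dendritic cell markers measured, which summed to 739 to 1809 in co-cultures and 794 to 1813 in MSC-only arrays, Ccr7 had 2.5 to 10.5 in co-cultures and 3.2 to 20.5 in MSC-only arrays. Flt3 had 5.9 to 44.2 in co-cultures and 5.4 to 41.6 in MSC-only arrays, and Xcr1 had 2.6 to 17.4 in co-cultures and 2.4 to 45.2 in MSC-only arrays. Batf3 was brighter, with 119.5 to 209.8 in co-cultures and 75.2 to 183.5 in MSC-only arrays. Itgax and Clec10a, given above, were not near the floor either. The 7 B cell markers summed to 7060 to 9103 in co-cultures and 7506 to 8344 in MSC-only arrays. Nearly all of that came from Blnk, an adaptor that macrophages also express, while Cd79a of the B cell receptor had 1.4 to 42.9 in co-cultures and 1.2 to 28.1 in MSC-only arrays. Cd22 had 231.6 to 395.8 in co-cultures and 210.1 to 345.5 in MSC-only arrays. Cd79b had 45.8 to 133.2 in co-cultures and 57.0 to 117.7 in MSC-only arrays. The 5 T cell markers summed to 119 to 254 in co-cultures and 153 to 348 in MSC-only arrays.

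The comparison the study was built for set the co-cultures against the MSC-only arrays with limma on log2(signal + 16), with p-values adjusted by Benjamini-Hochberg across the whole array. No probe set of the 9 genes passed an adjusted p of 0.05 (0 of 23), where 2 of 45037 did (0.00444%). At an unadjusted p under 0.05 there was 1 of 23, in the higher direction, against 4.36% of all probe sets (2.81% higher and 1.55% lower), and 0 of 23 had groups without overlap, against 0.198%. A higher mean in the co-culture group was found for 7 of the 23 probe sets (30.4%) and a lower mean for 16, while 54.7% of all probe sets had a higher mean. The median difference, co-culture minus MSC-only, was -0.05 over the 23 probe sets and 0.02 over all. The sign counts moved with the constant added before the logarithm, and with 1 in place of 16 the count of higher means was 12 of 23.

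The 1 probe set with a small unadjusted p was Ciita 1421211_a_at, at 18.9 ± 5.85 in the co-culture group and 7.85 ± 3.77 in the MSC-only group (SD, n = 6 each). The difference was 0.55 on the log2(signal + 16) scale (SE 0.14, 95% interval 0.24 to 0.85), with an adjusted p of 0.734 in limma. The scale understates changes at such low signals, where precision is least. The other 2 probe sets of Ciita differed by -0.18 (1421210_at) and -0.22 (1447075_at) on the log2 scale. Without the arrays numbered 3 and 4, the difference of 1421211_a_at was 0.50.

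For the class II chains the intervals were wide. H2-Eb1 averaged 164 ± 95.7 in the co-culture group and 127 ± 75.3 in the MSC-only group (SD, n = 6 each), a log2 difference of 0.35 (SE 0.42, 95% interval -0.56 to 1.26). Without the arrays numbered 3 and 4 it was 0.60, and leaving out 1 array at a time gave 0.14 to 0.54. H2-Ab1 differed by -0.00 on 1450648_s_at (95% interval -0.71 to 0.70) and by -0.02 on 1425477_x_at (-1.50 to 1.47). H2-Aa differed by -0.05 on 1435290_x_at (-1.27 to 1.18). On that probe set the difference was 0.94 without the arrays numbered 3 and 4, with an adjusted p of 0.785 in limma. Leaving out MSC-only array 4 alone gave 0.37. Narrower bounds were had for Cd74, at 0.03 (-0.28 to 0.34), and for H2-DMa, at 0.11 on 1422527_at (-0.25 to 0.47). Without the arrays numbered 3 and 4 these were 0.24 for Cd74 and 0.34 for H2-DMa (adjusted p 0.818 and 0.761 in limma), and leaving out 1 array at a time gave 0.043 to 0.23 for H2-DMa.

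Cd86 averaged 923 ± 521 in the co-culture group and 965 ± 433 in the MSC-only group on 1420404_at (SD, n = 6 each), a log2 difference of -0.14 (SE 0.42, 95% interval -1.05 to 0.76). On 1449858_at the difference was -0.10 (-1.22 to 1.03). Cd80 differed by -0.17 on 1432826_a_at (-0.61 to 0.28) and Cd40 by -0.00 on 1460415_a_at (-0.58 to 0.57). Without the arrays numbered 3 and 4 the differences were -0.31 (1420404_at) and -0.25 (1449858_at) for Cd86, -0.29 for Cd80 and -0.06 for Cd40. Apart from Ciita 1421211_a_at, the smallest adjusted p of the other 22 probe sets was 1 in limma after rounding. These intervals include changes of either sign, so that co-culture and MSC-only levels cannot be called equal either.

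With the side of the first component as a block, a setting chosen after the data were seen, the standard errors were smaller for genes that divide along it. The SE of the H2-Eb1 difference of 0.35 was then 0.15, with an unadjusted p of 0.040 and an adjusted p of 0.951 in limma. That of the Cd86 difference of -0.14 on 1420404_at was 0.17. Among negative-score arrays alone Cd86 differed by 0.07 on that probe set and among positive-score arrays by -0.36, while H2-Eb1 differed by 0.31 among negative-score and 0.38 among positive-score arrays. Ciita 1421211_a_at differed by 0.60 among negative-score and 0.49 among positive-score arrays, and its adjusted p with the block was 0.616 in limma. No probe set of the 9 genes passed with the block (0 of 23).

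**Figure D3:**
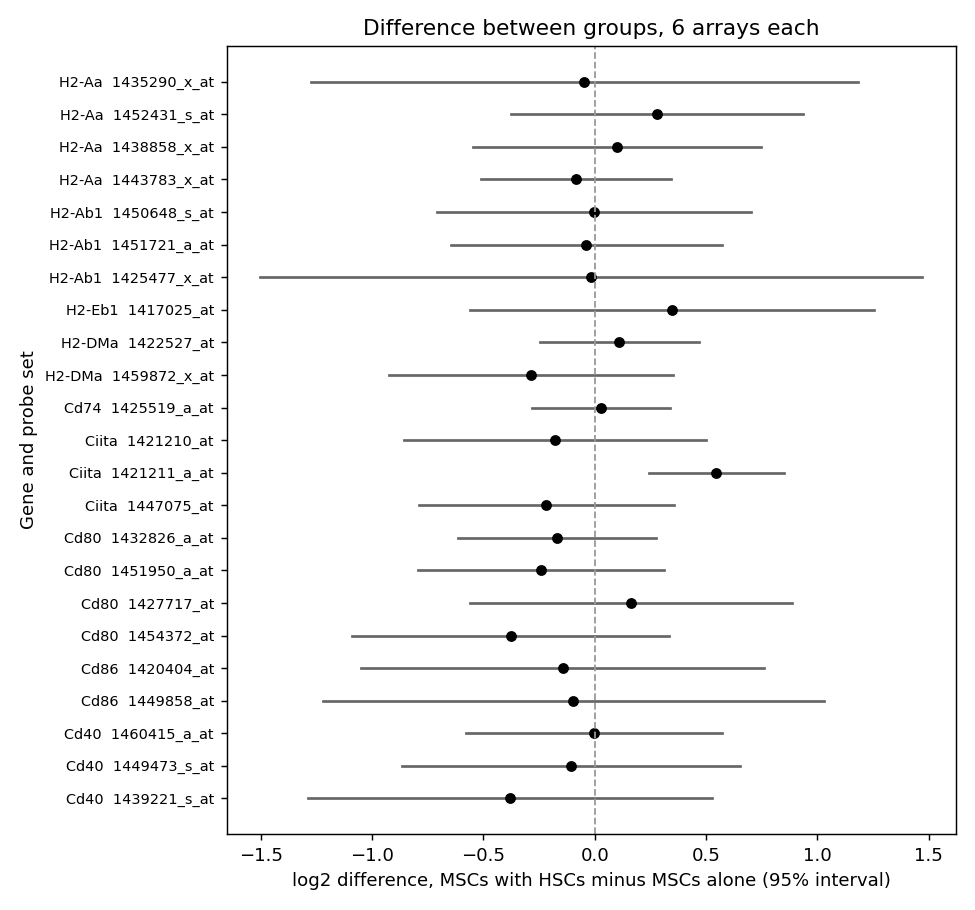
Log2 difference of signal + 16, co-culture minus MSC-only (points), with its 95% interval from limma (lines) for the 23 probe sets, 6 arrays per group. All intervals except that of Ciita 1421211_a_at include 0, and the widest 3 belong to H2-Ab1 1425477_x_at, H2-Aa 1435290_x_at and Cd86 1449858_at.

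Whether the genes moved together from array to array was read over the 12 arrays with the brightest probe set of each gene, in 36 pairs with permutation tests and Benjamini-Hochberg adjustment over the pairs. Cd80 and Cd86 had a Pearson r of 0.87 (permutation p = 0.00011, adjusted p = 0.0040) and a Spearman rho of 0.76 (permutation p = 0.0054, adjusted p = 0.0913). Without the 2 arrays farthest from the median of Cd80, r was 0.80. Within the co-culture arrays r was 0.91 and within the MSC-only arrays 0.81, but within the negative-score arrays it was -0.86 and within the positive-score arrays 0.78, so the relation did not hold on both sides of the component. H2-Ab1 and Cd80 had a rho of 0.84 (permutation p = 0.0013, adjusted p = 0.0457) and an r of 0.64 (permutation p = 0.0282, adjusted p = 0.127), with r at 0.48 without the 2 farthest arrays and at 0.39 and -0.11 within the negative-score and positive-score arrays. No pair passed by both measures, and 18 of the 36 pairs had a positive r.

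On their brightest probe sets, the chains of I-A were not positively correlated over the 12 arrays. H2-Aa and H2-Ab1, the chains of I-A, had r = -0.44 (adjusted p = 0.385, permutation test) and H2-Aa and Cd86 r = -0.70 (adjusted p = 0.115, permutation test). H2-Eb1 and Cd86 had r = 0.80 (adjusted p = 0.0693, permutation test), with -0.01 within the negative-score and -0.57 within the positive-score arrays. These values describe arrays that share a platform and, in part, the division along the first component.

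The genes most like each costimulatory molecule were sought among 10605 genes, by r over the 12 arrays and with no test. For Cd86 they were Iqgap2, Tk2 and Slc45a4 (each r = 0.98), and for Cd80 they were Aoah (0.97), Il21r (0.96) and Nfib (0.96). All 6 of these did not overlap between the sides of the first component. That was largely set by their choice, because the Cd86 and Cd80 probe sets they were matched to did not overlap either. For Cd40 they were Zmat2 (0.89), Capzb (0.88) and Mrvi1 (0.87). For the mean of H2-Aa, H2-Ab1, H2-Eb1 and Cd74 the 10 most alike were led by Cdk20 (0.95), Anp32b (0.95) and Qpct (0.93). They included the adhesion molecule Vcam1 and the chemokine receptor Ccr1 (each 0.89), and none of the first 3 separated the sides. The averaged genes did not all move together. H2-Aa had r = -0.44 with H2-Ab1 and -0.37 with H2-Eb1, while the other pairs among them had 0.12 to 0.67. The mean therefore stands for no single shared pattern.

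The genes that serve class II molecules were read in the same fit. Of 12 measured partners in class II assembly and peptide loading, 8 had a higher and 4 a lower mean in the co-culture group, 0 passed the adjusted threshold and the median log2 difference was 0.04. H2-Ob, a chain of the H2-O inhibitor of H2-DM, averaged 31.9 ± 11.7 in co-cultures and 18.9 ± 9.45 in MSC-only arrays, and H2-Ea, the I-E alpha chain locus, 20.8 ± 7.13 in co-cultures and 12.4 ± 6.62 in MSC-only arrays on 1426202_at (SD, n = 6 each). These were the 2 of 12 partners with an unadjusted p under 0.05 in limma, against 4.36% of all probe sets, and both were dim. H2-Eb2 and H2-Oa, the next partners by p, went the other way, with log2 differences of -0.45 and -0.30. Other probe sets of the partners did not all point the same way. A different H2-Ea probe set, 1422892_s_at, had 36.6, 20.9 and 46.9 on co-cultures 2, 4 and 5 and 2.8 to 6.7 on the other 9 arrays, while 1422891_at of the same gene differed by 0.03. H2-DMb2, a beta chain of H2-DM, differed by 0.13 on its brightest probe set, by 0.35 on 1419744_at and by -0.37 on 1443686_at. Proteases that cut the invariant chain and antigens differed by less than the spread of the arrays. Ctss (cathepsin S) averaged 36357 ± 5868 in co-cultures and 34859 ± 3593 in MSC-only arrays, and Ctsl (cathepsin L) 30202 ± 7255 in co-cultures and 28617 ± 4095 in MSC-only arrays (SD, n = 6 each).

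Of 19 measured regulators of class II transcription, 10 had a higher and 9 a lower mean in the co-culture group, 0 passed and the median difference was 0.02. Rfx5, a subunit of the RFX complex that binds the X box, averaged 395 ± 60.1 in co-cultures and 444 ± 56.9 in MSC-only arrays (SD, n = 6 each). Nfyb, a subunit of NF-Y that binds the Y box, averaged 454 ± 26.1 in co-cultures and 411 ± 69.4 in MSC-only arrays. Both differences, -0.17 and 0.15 on the log2 scale, lay within the spread of the arrays. Ifngr2, a chain of the interferon gamma receptor, was the 1 of these 19 genes that did not overlap between the sides (6.6% of all probe sets), with 1282 to 2086 on negative-score arrays and 2118 to 2682 on positive-score arrays.

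Of 24 other costimulatory and coinhibitory ligands, receptors and adhesion molecules, 15 had a higher and 9 a lower mean in the co-culture group, 0 passed and the median difference was 0.03. Tnfrsf4, which encodes OX40, a costimulatory receptor on T cells, averaged 148 ± 57.2 in co-cultures and 221 ± 47.6 in MSC-only arrays (SD, n = 6 each). It differed by -0.57 and was the 1 of the 24 genes with an unadjusted p under 0.05 in limma, against 4.36% of all probe sets. Between the sides 4 of the 24 did not overlap, against 6.6% of all probe sets. Tnfsf9 (4-1BB ligand) and Nectin2 were higher on the negative-score arrays without overlap, as Cd86 was, with 128 to 208 on negative-score and 64.7 to 123 on positive-score arrays for Tnfsf9, and 262 to 400 on negative-score and 169 to 212 on positive-score arrays for Nectin2. Cd276 (B7-H3) and Havcr2 (TIM-3) lay the other way, with 93.1 to 108 on negative-score and 161 to 352 on positive-score arrays for Cd276, and 604 to 747 on negative-score and 796 to 1107 on positive-score arrays for Havcr2.

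MHC class I, which presents peptides of the cell's own proteins to CD8+ T cells, was measured by 16 genes, of which 6 had a higher and 10 a lower mean in the co-culture group, 0 passed and the median difference was -0.02. B2m, the common light chain, averaged 30628 ± 3281 in co-cultures and 30368 ± 3459 in MSC-only arrays, and H2-K1, a heavy chain, 17678 ± 1704 in co-cultures and 18038 ± 984 in MSC-only arrays (SD, n = 6 each). In 4 of these 16 genes the sides did not overlap, each higher on the negative-score arrays, as 3.59% of all probe sets were. B2m had 31685 to 35592 on negative-score and 26609 to 28852 on positive-score arrays, and the peptide transporter gene Tap1 had 532 to 626 on negative-score and 417 to 458 on positive-score arrays. The other two were H2-K1 and Psmb9, a subunit of the immunoproteasome. In these 4 genes the lowest negative-score array was only 1.01 (H2-K1) to 1.16 (Tap1) times the highest positive-score array. The median signal of the whole array also leaned higher on the negative-score arrays, and its part in these gaps was not tested.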

How the data were processed

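The values were Affymetrix array signals. The authors summarised each array with the platform's own software and deposited a signal intensity per probe set on a linear scale; for the summary method and the scaling target, the sources used here name nothing. The median signal was 77.2 to 89.0 on co-culture arrays and 74.8 to 85.5 on MSC-only arrays, so the deposited intensity values were used without further scaling. Linear models with moderated variances (lmFit, then eBayes, of limma 3.58.1 under R 4.3.3) were fitted to log2(signal + 16), without a block, over all 45037 probe sets. Principal components were taken of the same log2 values, centred per probe set. Other steps used Python 3.11.15 with SciPy 1.17.1 (permutation tests with 100000 resamples). The fit was tested on data simulated with independent noise for each probe set, so without a component shared between probe sets. Changes of 0.5 on the log2 scale were recovered in 24% of 50 probe sets above the median level. Changes of 1 were recovered in 86% of 50, and 10 unchanged probe sets were called in that test. Differences of the smaller size could thus be missed. Groups came from the sample titles. Of the probe sets, 34945 have 1 gene symbol in the platform annotation, 932 several and 9160 none. All 23 probe sets of the 9 genes matched the RefSeq gene table under the same symbol.

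All probe sets of the 9 genes were named, and of each pathway list the 4 genes with the smallest p and the 3 brightest at most, plus genes singled out after their values were seen because they did not overlap between the sides of the component. The brightest probe set stands for a gene in lists and pairs. The gene set and the lists were chosen with earlier results of these data known. Promoter sequences came from RefSeq tables of GRCm38.p6. Alternatives were other scalings, constants, filters, tests and subsets of arrays.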

Additional observations from a re-analysis of the deposited data

Results flagged for a closer look

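Of 24 groups of 6 arrays checked for an array far from its group, 1 was set aside for a closer look. Ciita probe set 1421210_at had a signal of 7.4 on co-culture 2, against 48.3 to 87.2 on the other 5 co-cultures, and the gap to the nearest was 0.681 of the group's range, past the 95% critical value of Dixon's test for 6 arrays. Chance alone marks about 5% of groups in this way. The other Ciita probe sets had 19.8 (1421211_a_at) and 14.1 (1447075_at) on that array, inside the range of the other co-cultures.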

How the results depend on the processing

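No probe set of the 9 genes passed the adjusted threshold under any alternative (of 304 recomputed differences of 12 probe sets, 55 reversed). Over all probe sets, the count past an adjusted p of 0.05 in limma, 2 as reported, was 1 with quantile normalization, centring on the median or on the 75th percentile, log2(signal + 1), the methods' t-test or the component side as a block. It was 0 with log2(signal + 64), with dim probe sets left out, with trended and robust variances, and within the positive-score or the negative-score arrays, and 8 without the arrays numbered 3 and 4. Leaving out 1 array at a time gave 0 to 4, with 0 without co-culture 3 or MSC-only array 1 and 4 without MSC-only array 6. The replicate number was not taken to pair the arrays: no label gives it such a meaning, although both groups' arrays numbered 3 and 4 had at most 13.6 for Eif2s3y. Deviations of same-numbered arrays correlated at -0.16 to 0.15, over 0.1 in 4 of 6 numbers, and 1 of 6 co-cultures correlated best with its own number. With the replicate block the count was 0 (2136 at an unadjusted p under 0.05, against 1964 without it).

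The count of the 23 probe sets with a higher co-culture mean, 7 as reported, was 12 with log2(signal + 1), 3 with dim probe sets left out, 12 without the arrays numbered 3 and 4, 11 within the positive-score and 12 within the negative-score arrays, and 7 to 13 leaving out 1 array. The count of pairs with an adjusted p of r under 0.05, 1 as reported, was 0 without the arrays numbered 3 and 4, within the 6 co-cultures, within the 6 MSC-only arrays and within either side. Among 6 arrays the permutations are too few for a lone pair to pass readily, so the counts within groups and sides show little.

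The following differences turned sign, and the cause was not tested. With log2(signal + 1), H2-Aa 1435290_x_at was 0.0032, H2-Ab1 1450648_s_at 0.0058, H2-Ab1 1425477_x_at 0.15 and Cd40 1460415_a_at 0.026. Centring on the 75th percentile gave 0.0076 for H2-Ab1 1450648_s_at and 0.0068 for Cd40, and centring on the median gave -0.012 for Cd74. Without the arrays numbered 3 and 4, H2-Aa was 0.94 and H2-Ab1 1425477_x_at 0.10. Within the positive-score arrays H2-Ab1 was 0.30 (1450648_s_at) and 0.15 (1425477_x_at) and Ciita 1421210_at 0.082. Within the negative-score arrays H2-Aa was 0.28, Cd74 -0.11, Cd40 0.016 and Cd86 0.072 (1420404_at) and 0.12 (1449858_at). The mean of all probe sets of the gene gave 0.062 for H2-Aa, -0.089 for H2-DMa and 0.050 for Ciita. Leaving out 1 array gave -0.36 to 0.37 for H2-Aa 1435290_x_at, -0.17 to 0.19 for H2-Ab1 1450648_s_at, -0.32 to 0.25 for H2-Ab1 1425477_x_at, -0.043 to 0.092 for Cd74, -0.33 to 0.10 for Ciita 1421210_at, -0.33 to 0.066 for Cd86 1420404_at, -0.35 to 0.14 for Cd86 1449858_at and -0.23 to 0.11 for Cd40 1460415_a_at.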
